A study of Homo sapiens with 9 samples.

Results

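The comparison described here set H1299 cells transfected with a FOXN3 siRNA, siFOXN3-2, against H1299 cells transfected with a control siRNA, siControl. It was made over 6 of the 9 samples of the series, 3 with siFOXN3-2 and 3 with siControl, and the other 3 samples carried another FOXN3 siRNA, siFOXN3-1. The table held 34789 genes, of which the 12900 with a mean of at least 1 FPKM (fragments per kilobase of exon scaled to sequencing depth, so a level corrected for gene length) over the 6 samples were tested and 21889 were left out. H1299 is an epithelial-like line derived from a human non-small cell lung cancer, and its labelled genotype was WT in siControl and FOXN3 knockdown with either siRNA. Each siRNA was used at 50 nM with RNAiMAX on cells at 30 to 50% density, and polyadenylated RNA was sequenced. The treatment labels name FOXN3 as the target in siFOXN3-2 replicate 1 but siFOXN4 and siFOXN5 in replicates 2 and 3, whose titles and table columns continue siFOXN3-2. For the siFOXN3-2 samples alone they also speak of another RNAiMAX of the same type, so the siRNA and the transfection reagent used with it cannot be told apart. All samples share 1 cell line. Since nothing in the labels says that replicates were grown apart, p-values rest on a spread that may be technical.

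FOXN3 is a forkhead transcription factor that acts as a repressor, and an siRNA guides the RNA interference complex to transcripts that match it. Transfected cells can also change transcripts in answer to the transfection itself or to partial matches of the siRNA, which is why a control siRNA and a second siRNA against the same gene are used. Several gene programmes described below answer within minutes to hours to growth factors, low oxygen, sterols, misfolded proteins or DNA damage. The series title joins FOXN3 with the ubiquitin ligase subunit β-TrCP, the kinase RSK2 and the DNA repair protein BRCA1.

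Depth, recovered from the steps of low FPKM values, was 17.01 to 18.5 M fragments in the siFOXN3-2 samples and 18.7 to 19.6 M in the siControl samples. Across genes, which are not independent replicates, log2 values correlated at 0.989 to 0.992 within a group and at 0.931 to 0.943 between the groups. Pairs of replicates were further apart than sampling of reads alone gives (chi-square of 4.53 to 13.7 per gene). This spread cannot tell technical repeats of the same RNA from cells grown apart. The epithelial and mesenchymal markers KRT8, KRT18 and VIM were high, while EPCAM, CDH1 and KRT19 were near 0. Markers of immune, endothelial and lung epithelial cells summed to at most 2.67, 0.582 and 3.20 FPKM in any siFOXN3-2 sample and to at most 1.75, 0.865 and 4.02 FPKM in any siControl sample. The 7 fibroblast markers summed to 2.96 to 4.70 FPKM with siFOXN3-2 and to 1.08 to 1.32 FPKM in siControl, almost all from collagen genes, with DCN, LUM, PDGFRA and PDGFRB at 0.1395 FPKM or less with siFOXN3-2. In bulk RNA, fewer cells of a type and less RNA per cell cannot be told apart.

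FOXN3 itself (ENSG00000053254, chromosome 14, 89124871 to 89619149 on GRCh38) had 0.858, 0.958 and 1.06 FPKM with siFOXN3-2, against 4.85, 5.25 and 5.005 FPKM in siControl. Every siFOXN3-2 sample, the ones labelled siFOXN4 and siFOXN5 included, lay far below every siControl sample. The mean with siFOXN3-2 was 19.03% of the siControl mean, for a log2 fold change of -1.62 (SE 0.0739, adjusted p = 2.84e-06 in limma). All log2 fold changes here were computed on log2(FPKM + 1), which understates changes at low levels, and a two-sided exact permutation test of FOXN3 gave p = 0.1, the smallest value 3 samples against 3 allow. FOXN3 shares 2.56% of its exonic bases with genes on the same strand and 7.54% with genes on the opposite strand, and the kit of these libraries keeps no strand information.

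Of the 12 tested genes tied to the study, FOXN3 included, 3 rose and 4 fell (median log2 fold change -0.01). BTRC, the gene of β-TrCP, had 1.56, 1.45 and 1.72 FPKM with siFOXN3-2, against 4.52, 4.58 and 5.24 FPKM in siControl (log2 fold change -1.16, SE 0.0802, adjusted p = 1.69e-05). BRCA1 had 1.74, 1.51 and 1.73 FPKM with siFOXN3-2, against 4.12, 4.303 and 4.198 FPKM in siControl (log2 fold change -0.97, SE 0.0696, adjusted p = 2.02e-05). In both genes the groups stood well apart. RPS6KA3, which encodes RSK2, rose, with 16.5, 15.7 and 18.7 FPKM with siFOXN3-2, against 11.5, 12.7 and 12.3 FPKM in siControl (log2 fold change 0.44, SE 0.0744, adjusted p = 0.00122). FOXN2, a close relative of FOXN3, also rose, to 10.3 FPKM with siFOXN3-2, against 6.86 FPKM in siControl (log2 fold change 0.51). PIM2, a survival kinase, rose (log2 fold change 0.75) and E2F5, a cell cycle repressor, fell (-0.41). RPS6KA1, which encodes RSK1, FBXW11, the paralog of BTRC, SIN3A, a corepressor scaffold, BARD1, the partner of BRCA1, and the nuclear RNA NEAT1 did not pass the test, with log2 fold changes of 0.12, 0.07, -0.05, -0.18 and 0.02. RPS6KA2 and RPS6KA6 lay below the level filter.

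Over the whole transcriptome, the answer to siFOXN3-2 was broad and mostly modest in size. A gene was called when its two-sided limma p, adjusted by the Benjamini-Hochberg method over the 12900 genes, was under 0.05, and "rose" and "fell" are used below only of called genes. Of the tested genes 62.3% were called, 2980 (23.1%) higher and 5059 (39.2%) lower with siFOXN3-2, and 4861 were not called. Taken over the tested genes, log2 fold changes had a median of -0.11, with a 5th percentile of -0.90 and a 95th of 0.78. Called genes with a log2 fold change of at least 1 numbered 351 (2.72% of those tested), and 445 (3.45%) had a value of at most -1. For 8815 genes (68.3%) no value of either group fell within the range of the other. Some called genes averaged under 1 FPKM in siControl, such as AREG and KRTAP2-3, and passed the level filter only through siFOXN3-2. Others, such as FOXS1, SAMD9, GEN1, CPT2, BRCA2 and GPER1, averaged under 1 FPKM with siFOXN3-2 and passed only through siControl. Calls of such genes, also where counted in lists, are no independent support for a change.

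The balance of rises and falls depends on the scale. FPKM divides by each library's own total, and rises made 37.1% of the calls on the deposited values. Scaling each sample by its median ratio to the other samples moved the median of all genes by 0.10 on the log2 scale and gave 3950 higher and 3909 lower genes (50.3% of calls higher). Quantile normalization gave 3698 higher and 4121 lower genes (47.3%), and a correction for GC content, chosen after seeing the data, gave 4036 higher and 3784 lower (51.6%). Lists below are therefore read against the median of all genes, -0.11, and the shares of 23.1% higher and 39.2% lower. The largest changes, of 2 or more on the log2 scale, lay well beyond this shift.

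**Figure D1:**
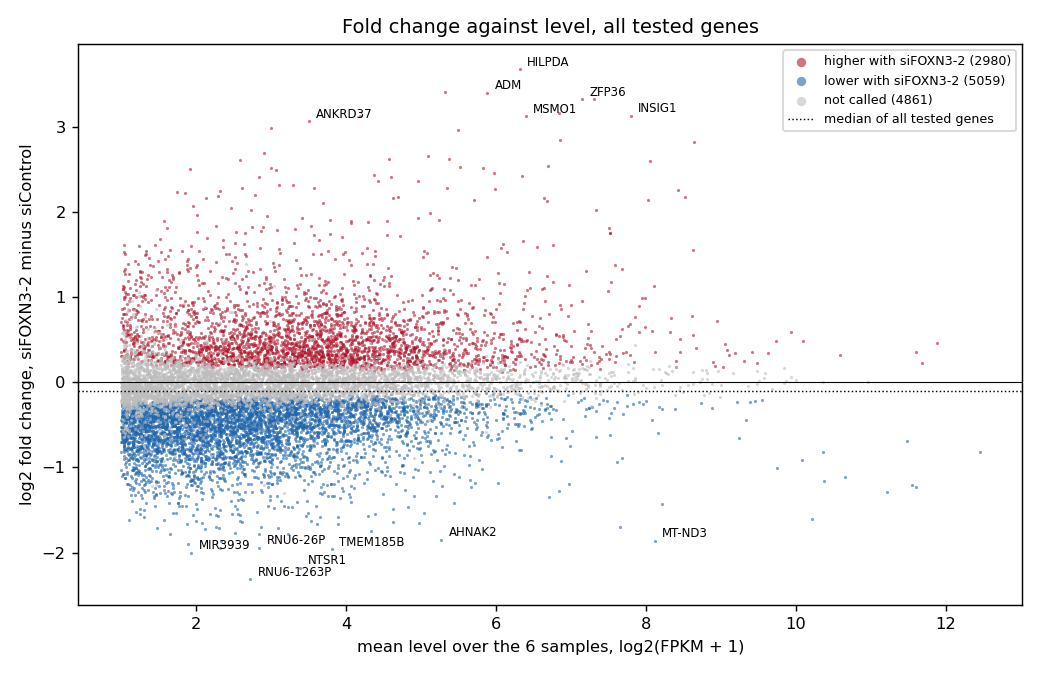
Each point is 1 of the 12900 tested genes, placed by its mean level over the 6 samples (horizontal, log2(FPKM + 1)) and its log2 fold change, siFOXN3-2 minus siControl (vertical). Red points were called higher (2980), blue points lower (5059) and grey points not called (4861), the dotted line is the median of all tested genes (-0.11), and names mark those of the largest rises and falls whose labels do not collide.

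Most of the 10 largest rises were in genes that cells are known to switch on in answer to low oxygen, growth factors or low sterol. HILPDA, a lipid droplet protein induced by hypoxia (ENSG00000135245, chromosome 7, 128455849 to 128458418), had 148, 158 and 135 FPKM with siFOXN3-2, against 10.99, 9.86 and 10.9 FPKM in siControl (log2 fold change 3.67, SE 0.0736, adjusted p = 1.07e-07). EGR1, an immediate early zinc finger transcription factor (ENSG00000120738, chromosome 5, 138465490 to 138469315), had 81.1, 68.4 and 67.1 FPKM with siFOXN3-2, against 4.71, 6.61 and 6.495 FPKM in siControl (log2 fold change 3.41, SE 0.123, adjusted p = 1.31e-06). ADM, the secreted vasodilator adrenomedullin (ENSG00000148926, chromosome 11, 10304680 to 10307397), had 108, 108 and 105 FPKM with siFOXN3-2, against 8.31, 9.102 and 10.4 FPKM in siControl (log2 fold change 3.40, SE 0.0766, adjusted p = 1.35e-07). In these genes the lowest siFOXN3-2 sample was several times the highest siControl sample, so the groups lay far apart. CCN2, a matricellular growth factor also called CTGF (ENSG00000118523, chromosome 6, 131948176 to 131951373), had 299, 289.8 and 269.9 FPKM with siFOXN3-2, against 27.3, 27.3 and 28.5 FPKM in siControl (log2 fold change 3.32, SE 0.05701, adjusted p = 1.07e-07). ZFP36, a protein that binds AU-rich elements and promotes decay of short-lived mRNAs (ENSG00000128016, chromosome 19, 39406813 to 39409412), had 268, 253 and 249.8 FPKM with siFOXN3-2, against 22.8, 25.1 and 26.8 FPKM in siControl (log2 fold change 3.32, SE 0.068002, adjusted p = 1.07e-07).

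SAT1, the rate-limiting enzyme of polyamine breakdown (ENSG00000130066, chromosome X, 23783173 to 23786226), had 209.7, 232 and 171 FPKM with siFOXN3-2, against 21.6, 21.2 and 22.6 FPKM in siControl (log2 fold change 3.16, SE 0.103, adjusted p = 8.55e-07). INSIG1, which holds the sterol sensor SCAP in the endoplasmic reticulum (ENSG00000186480, chromosome 7, 155297776 to 155310235), had 411, 420.5 and 363 FPKM with siFOXN3-2, against 45.6, 44.4 and 44.001 FPKM in siControl (log2 fold change 3.13, SE 0.0667, adjusted p = 1.10e-07). FOS, a subunit of the AP-1 transcription factor (ENSG00000170345, chromosome 14, 75278774 to 75282230), had 32.8, 33.6 and 28.3 FPKM with siFOXN3-2, against 2.48, 2.78 and 2.97 FPKM in siControl (log2 fold change 3.12, SE 0.0823, adjusted p = 2.90e-07). As with the genes before, no sample of either group came near the other group. MSMO1, a sterol demethylating enzyme (ENSG00000052802, chromosome 4, 165327623 to 165343160), had 143, 167 and 141 FPKM with siFOXN3-2, against 17.2, 15.4 and 16.6 FPKM in siControl (log2 fold change 3.12, SE 0.0783, adjusted p = 2.24e-07). ANKRD37, a small ankyrin repeat protein induced by hypoxia (ENSG00000186352, chromosome 4, 185396021 to 185400628), had 21.2, 19.5 and 17.004 FPKM with siFOXN3-2, against 1.24, 1.33 and 1.68 FPKM in siControl (log2 fold change 3.06, SE 0.0989, adjusted p = 8.00e-07). The exons of ANKRD37 share 35.2% of their bases with a gene on the opposite strand, and without strand information its reads cannot be told apart from that gene's.

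**Figure D2:**
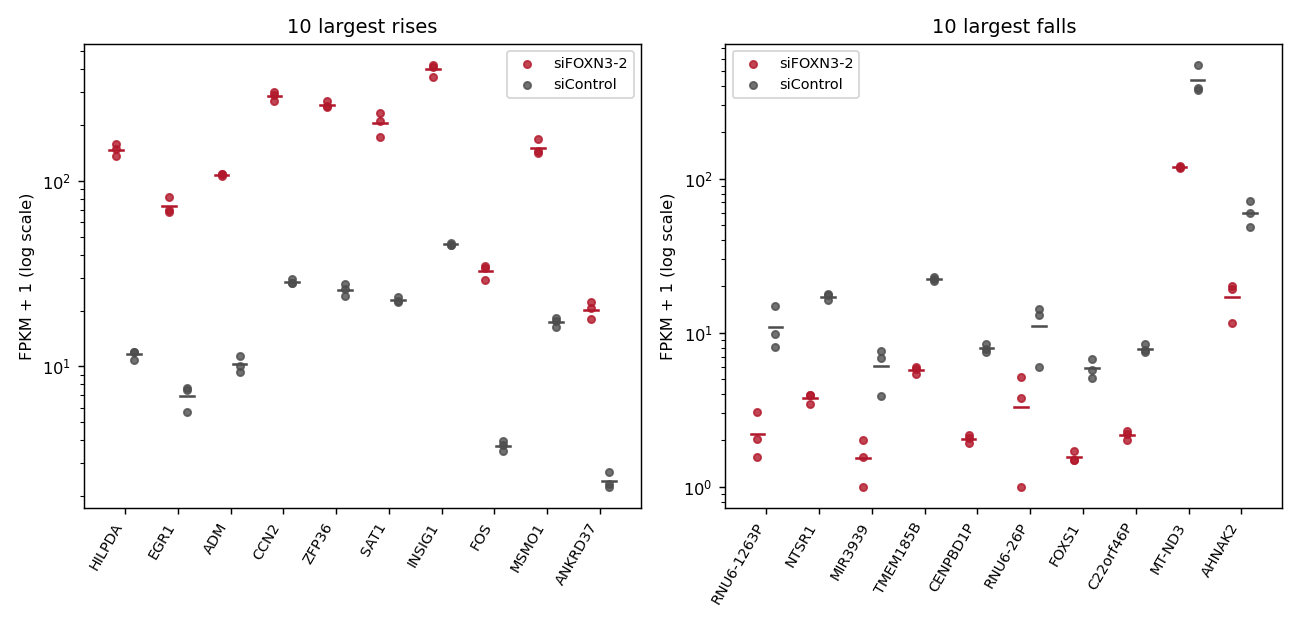
Level in each sample (points, FPKM + 1 on a log axis) of the 10 genes with the largest rise (left panel) and the 10 with the largest fall (right panel), with siFOXN3-2 in red, siControl in grey and bars at the group means. The 3 points of each group stay clear of the other group in every gene shown, and the spread is wide in the short genes RNU6-1263P, MIR3939 and RNU6-26P.

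The largest falls were more mixed and included several very short or pseudogene loci, whose FPKM rest on few reads. NTSR1, a neurotensin receptor coupled to G proteins (ENSG00000101188, chromosome 20, 62708837 to 62762771), had 2.93, 2.47 and 2.96 FPKM with siFOXN3-2, against 15.2, 16.5 and 16.7 FPKM in siControl (log2 fold change -2.18, SE 0.0733, adjusted p = 9.00e-07). TMEM185B, a transmembrane protein gene made of a single exon, had 4.97, 4.81 and 4.41 FPKM with siFOXN3-2, against 21.2, 22.1 and 20.5 FPKM in siControl (log2 fold change -1.96, SE 0.0613, adjusted p = 6.71e-07). AHNAK2, a giant scaffold protein, had 19.2, 10.6 and 18.1 FPKM with siFOXN3-2, against 47.6, 70.98 and 58.8 FPKM in siControl (log2 fold change -1.85, SE 0.221, adjusted p = 2.16e-04). The groups were clearly apart in each, although AHNAK2 varied more than the others within siControl. FOXS1, another forkhead factor, had 0.4902, 0.493 and 0.713 FPKM with siFOXN3-2, against 5.76, 4.07 and 4.76 FPKM in siControl (log2 fold change -1.90, SE 0.1195, adjusted p = 1.17e-05). CENPBD1P and C22orf46P, which current symbols name as pseudogenes, fell with log2 fold changes of -1.95 and -1.87. Among short RNA genes, RNU6-1263P, a U6 pseudogene copy, had 0.555, 2.05 and 1.04 FPKM with siFOXN3-2, against 7.07, 8.84 and 13.98 FPKM in siControl (log2 fold change -2.31, SE 0.281, adjusted p = 2.32e-04). MIR3939 had 0.555, 1.02 and 0 FPKM with siFOXN3-2, against 6.56, 5.896 and 2.89 FPKM in siControl (log2 fold change -2.004, SE 0.309, adjusted p = 7.94e-04), and RNU6-26P had 2.75, 0 and 4.14 FPKM with siFOXN3-2, against 5.001, 13.1 and 11.9 FPKM in siControl (log2 fold change -1.94, SE 0.59001, adjusted p = 0.0209). These 3 loci are near-identical to other copies or shorter than the fragments usually kept in such libraries, so their levels are uncertain. RNU6-26P also lost its call without siControl replicate 2 (log2 fold change -1.72, adjusted p = 0.0583) or without siControl replicate 3 (-1.78, adjusted p = 0.0571).

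Counted in FPKM and not in fold change, the gains and losses lay in abundant transcripts. The largest losses were 8 mitochondrially encoded mRNAs, and all 13 of the mitochondrial mRNAs fell, with log2 fold changes of -0.69 to -1.86 and a median of -1.16. MT-CO1, a core subunit of cytochrome c oxidase, had 3814, 3801 and 4562 FPKM with siFOXN3-2, against 6948, 7252 and 7154 FPKM in siControl (log2 fold change -0.82, SE 0.0865, adjusted p = 1.19e-04). MT-CYB, the only mitochondrially encoded subunit of complex III, had 555, 541 and 672 FPKM with siFOXN3-2, against 1767, 1870.5 and 1735 FPKM in siControl (log2 fold change -1.61, SE 0.0899, adjusted p = 6.98e-06). MT-ND3, a small complex I subunit and the only mitochondrial gene among the 10 largest falls by fold, had 115, 118 and 119 FPKM with siFOXN3-2, against 388, 378 and 545 FPKM in siControl (log2 fold change -1.86, SE 0.1304, adjusted p = 1.83e-05). In each of the 3 genes the groups were well separated. MT-ND6, which lies on the opposite strand of the mitochondrial DNA from the others, also fell (569.9 against 1145 FPKM, log2 fold change -1.01). Without strand information its reads cannot be told apart from those of transcripts of the other strand over the same bases. Together these mRNAs held 5.79, 5.52 and 6.98% of the summed FPKM with siFOXN3-2, against 11.8, 12.7 and 12.3% in siControl. The 13 falls were called under every scaling tried (median-ratio, quantile, nuclear total and GC correction), with a median of -0.80 after quantile normalization, -1.04 after median-ratio scaling and -1.14 after GC correction. The 2 mitochondrial ribosomal RNAs, which lack the usual poly(A) tails and so enter such libraries unevenly, went different ways. MT-RNR2 had 4026, 4337 and 4782 FPKM with siFOXN3-2, against 3047, 3225 and 3263 FPKM in siControl (log2 fold change 0.46, SE 0.0797, adjusted p = 0.00146), while MT-RNR1 had 696 against 802 FPKM (log2 fold change -0.21, adjusted p = 0.0191) and lost its call without siControl replicate 1 (-0.20, adjusted p = 0.0559), siControl replicate 2 (-0.20, adjusted p = 0.0685), siControl replicate 3 (-0.22, adjusted p = 0.05097) or siFOXN3-2 replicate 1 (-0.17, adjusted p = 0.0769).

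The nuclear genes behind the mitochondrial genome did not follow these mRNAs. Of 28 tested factors of mitochondrial DNA and RNA, 12 rose and 7 fell, with a median of 0.06. TFB2M, a transcription initiation factor (16.1 against 9.64 FPKM, log2 fold change 0.68), TFAM, which packages and transcribes mitochondrial DNA (0.52), and LRPPRC, which stabilizes mitochondrial mRNAs (0.42), rose, while MTERF4, a ribosome assembly factor (-0.73), and FASTK (-0.52) fell. Of 38 nuclear-encoded subunits of the respiratory chain, 4 rose and 8 fell, with a median of 0.01, but the balance turned to 12 higher and 3 lower after median-ratio scaling and to 9 higher and 3 lower after GC correction. The largest fall among them was COX5A (35.4 against 57.1 FPKM, log2 fold change -0.67). Of 38 mitochondrial ribosomal proteins (median -0.01), 11 rose, led by MRPL44 (0.77) and MRPS30 (0.76), and 9 fell, led by MRPL20 (-0.70).

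The largest gains in FPKM were MT-RNR2, then the glycolytic enzyme GAPDH (3497 against 2726 FPKM), CCN1, EEF1A1, ERRFI1, TM4SF1, the ferritin light chain gene FTL and CKS2. CCN1, a matricellular protein also called CYR61, had 736, 697 and 668 FPKM with siFOXN3-2, against 94.1, 98.7 and 103 FPKM in siControl (log2 fold change 2.81, SE 0.0618, adjusted p = 1.22e-07). ERRFI1, a feedback inhibitor of the EGF receptor, had 598, 584 and 625 FPKM with siFOXN3-2, against 119.8, 141 and 138 FPKM in siControl (log2 fold change 2.18, SE 0.0728, adjusted p = 8.93e-07). TM4SF1, a tetraspanin-like membrane protein, had 484, 634 and 581 FPKM with siFOXN3-2, against 113, 116 and 123 FPKM in siControl (log2 fold change 2.25, SE 0.0978, adjusted p = 2.52e-06), and CKS2, a small partner of cyclin-dependent kinases, had 593, 645 and 534 FPKM with siFOXN3-2, against 209.6, 189 and 200.3 FPKM in siControl (log2 fold change 1.56, SE 0.0794, adjusted p = 4.73e-06). These 4 genes moved by several fold, with no overlap of the groups. GAPDH, FTL and EEF1A1 are abundant, and their log2 fold changes were only 0.36, 0.59 and 0.23. When all listed genes were fitted with no level filter, GAPDH (0.36, adjusted p = 0.238), MT-RNR2 (0.46, adjusted p = 0.201), MT-CO1 (-0.82, adjusted p = 0.08697) and EEF1A1 (0.23, adjusted p = 0.467) were no longer called. Their log2 fold changes were the same in that fit, and why the calls were lost was not tested. Apart from this, GAPDH, MT-RNR2 and MT-CO1 have pseudogene copies in the nuclear genome that can share reads. EEF1A1, a translation elongation factor, also lost its call without siControl replicate 2 (log2 fold change 0.20, adjusted p = 0.102), siControl replicate 3 (0.21, adjusted p = 0.0866), siFOXN3-2 replicate 1 (0.24, adjusted p = 0.0751) or siFOXN3-2 replicate 2 (0.18, adjusted p = 0.0664).

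The AP-1 and ATF factors, many of them immediate early genes, rose as a group, and other immediate early genes were mixed. Immediate early genes need no new protein to be transcribed, and ERK signalling through serum response factor, which binds the CArG box, is a textbook route to them. Of the 14 tested AP-1, ATF and small MAF factors, 13 rose and 0 fell, and their median log2 fold change was 1.35 against -0.11 for all genes. JUN, a main AP-1 subunit, had 188, 177 and 161 FPKM with siFOXN3-2, against 27.1, 29.5 and 31.3 FPKM in siControl (log2 fold change 2.54, SE 0.0771, adjusted p = 5.74e-07). JUNB had 177, 172 and 137 FPKM with siFOXN3-2, against 35.7, 32.7 and 37.5 FPKM in siControl (log2 fold change 2.16, SE 0.102, adjusted p = 3.44e-06), and ATF3, a stress-induced repressor, had 11.6, 9.93 and 9.42 FPKM with siFOXN3-2, against 1.43, 1.62 and 1.33 FPKM in siControl (log2 fold change 2.20, SE 0.0882, adjusted p = 1.76e-06). The groups were far apart in each of these genes. JUND (281 against 82.8 FPKM, log2 fold change 1.75), FOSB (1.53), FOSL1 (1.17) and MAFF (2.31) rose as well, and only BATF3 of the list did not pass (0.11). Of 16 genes of the EGR, NR4A and serum response factor list, 7 rose and 2 fell, with a median of 0.14. The orphan nuclear receptors NR4A1 (9.09 against 1.09 FPKM, log2 fold change 2.28) and NR4A2 (50.9 against 9.08 FPKM, 2.36) and the survival gene IER3 (283 against 79.6 FPKM, 1.81) led after EGR1. The immediate early members IER2, IER5 and KLF10 were not called (-0.11, 0.18 and -0.01, with IER2 and IER5 called higher after GC correction), and IER5L fell (-0.45, but -0.13, adjusted p = 0.257 after GC correction). The cytoskeletal targets of the same factor did not follow, with TAGLN lower (-0.36, but -0.16, adjusted p = 0.142 after quantile normalization) and VCL, ZYX, MYL9 and FLNA not called (-0.07, 0.11, -0.15 and -0.27).

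The promoter of EGR1 is shown because its CArG boxes are the best known of these elements. Sequences here and below are from RefSeq promoters of GRCh38.p14, taken from the 250 bases before the start site, written 5′ to 3′ on the gene's strand, with the motif in capitals.
EGR1 chr5:138465364-138465393 (+): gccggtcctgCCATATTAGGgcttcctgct
EGR1 chr5:138465386-138465415 (+): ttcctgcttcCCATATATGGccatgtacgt
A CArG box (both strands) was found in 4 of 11 promoters of that EGR, NR4A and serum response factor list with a sequence (36.4%), and in 0.998% of the 9322 tested genes with a promoter of 300 bases (250 before and 50 after the start). Among genes that rose by at least 1 on the log2 scale it was in 2.17% of 184 promoters, and among those that fell by at least 1 in 0.372% of 269. Such a match is a description of letters and not a binding site.

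Feedback inhibitors of the same pathway were divided. Among 19 members 8 rose and 3 fell, and there was a median of 0.17. DUSP1, a nuclear MAP kinase phosphatase, had 96.2, 105 and 86.4 FPKM with siFOXN3-2, against 16.3, 15.5 and 16.04 FPKM in siControl (log2 fold change 2.51, SE 0.073996, adjusted p = 5.50e-07), and DUSP5, a phosphatase selective for ERK, had 205, 199.8 and 198 FPKM with siFOXN3-2, against 25.5, 28.96 and 27.1 FPKM in siControl (log2 fold change 2.84, SE 0.0591, adjusted p = 1.07e-07). SPRY2, a Sprouty inhibitor of receptor signalling, rose as well (114 against 53.5 FPKM, log2 fold change 1.08). SPRED1 (3.77 against 8.41 FPKM, -0.98) and SPRED3 (6.32 against 13.5 FPKM, -0.995), which also restrain the pathway, fell, as did SPRY1 (-0.39, but -0.22, adjusted p = 0.0613 after quantile normalization). DUSP6, a cytoplasmic ERK phosphatase, did not pass (17.1 against 14.9 FPKM, 0.19). Of 20 growth factors and receptors (median -0.15), 6 rose, among them the EGF receptor ligand AREG (2.405 against 0.37005 FPKM, 1.31) and PDGFA (0.76). Another 8 fell, among them the receptors ERBB2 (2.94 against 5.43 FPKM, -0.70), ERBB3 (-0.51) and EGFR (-0.43) and the ligand TGFA (32.4 against 49.4 FPKM, -0.60).

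Of 14 Krüppel-like and SP factors, 7 rose and 1 fell, with a median of 0.24. KLF4 (16.3 against 5.11 FPKM, log2 fold change 1.51), KLF6 (49.5 against 19.8 FPKM, 1.28) and KLF9 (16.2 against 7.24 FPKM, 1.06) led, and SP3 fell (-0.28). Of 17 genes of AU-rich mRNA decay and the deadenylase complex (median 0.15), 8 rose and 2 fell. After ZFP36 the largest rises were its paralog ZFP36L1 (257 against 62.5 FPKM, 2.02) and the antiproliferative genes BTG1 (1.99) and BTG3 (1.54), while KHSRP, another AU-rich binding protein, fell (50.1 against 79.1 FPKM, -0.65). Of 9 genes of the MYC network (median 0.37), 5 rose and 2 fell. MYC had 99.04, 103 and 103 FPKM with siFOXN3-2, against 32.1, 32.2 and 33.4 FPKM in siControl (log2 fold change 1.62, SE 0.0493, adjusted p = 5.74e-07). The MYC antagonists MXD1 (1.57) and MXI1 (1.38) rose alongside it.

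Promoters of 3 genes that rose hold the cAMP response element TGACGTCA, which AP-1 and ATF factors also bind, and are shown for that reason.
DUSP1 chr5:172771302-172771331 (-): ggcagggcgggTGACGTCAccgccccgtca
PPP1R15A chr19:48872352-48872381 (+): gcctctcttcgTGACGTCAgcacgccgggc
JUND chr19:18281804-18281833 (-): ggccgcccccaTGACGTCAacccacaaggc
This element was in 7.07% of the 184 promoters of genes that rose by at least 1, in 1.49% of the 269 promoters of genes that fell by at least 1, and in 3.51% of all 9322. The AP-1 motif TGANTCA was in 5.98, 3.72 and 4.001% of the same promoters, and the forkhead motif GTAAACA in 4.35, 2.602 and 2.26%. No test was made of these shares.

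Hypoxia-inducible genes rose almost without exception. HIF, a dimer whose α subunit is destroyed in the presence of oxygen, binds ACGTG in its target genes. Of 31 tested targets and regulators, 27 rose and 3 fell, and the median of their log2 fold changes was 0.85. SLC2A3, a glucose transporter, had 452, 449 and 461 FPKM with siFOXN3-2, against 68.4, 79.4 and 74.96 FPKM in siControl (log2 fold change 2.60, SE 0.0644, adjusted p = 2.18e-07). BHLHE40, a transcriptional repressor induced by hypoxia, had 81.5, 74.2 and 75.2 FPKM with siFOXN3-2, against 11.2, 13.2 and 13.4 FPKM in siControl (log2 fold change 2.52, SE 0.0767, adjusted p = 5.74e-07). ANGPTL4, a secreted inhibitor of lipoprotein lipase, had 292, 296 and 257 FPKM with siFOXN3-2, against 78.9, 85.9 and 83.8 FPKM in siControl (log2 fold change 1.75, SE 0.0699, adjusted p = 1.76e-06). No siControl sample reached any siFOXN3-2 sample in these genes. DDIT4, an mTOR inhibitor (277 against 106 FPKM, 1.37), P4HA1, a collagen prolyl hydroxylase (1.21), PDK1, which closes the entry of pyruvate to mitochondria (4.38 against 1.72 FPKM, 0.98), and the mitophagy receptors BNIP3 (0.92) and BNIP3L (0.85) rose less. The 3 members that fell were not targets but parts of the oxygen sensor: the hydroxylases HIF1AN (4.49 against 7.72 FPKM, -0.67) and EGLN2 (-0.34) and the ligase subunit VHL (-0.22). The sensor did not fall as a unit, since another hydroxylase, EGLN1, rose (0.40). EGLN2 lost its call without siControl replicate 2 (-0.30, adjusted p = 0.0533) or replicate 3 (-0.29, adjusted p = 0.0583). It was also not called after median-ratio scaling (-0.24, adjusted p = 0.0559), quantile normalization (-0.17, adjusted p = 0.162) or GC correction (-0.11, adjusted p = 0.315). Median-ratio scaling ended the call of VHL as well (-0.10, adjusted p = 0.127). HIF1A itself was slightly higher (33.2 against 28.1 FPKM, 0.23, but 0.17, adjusted p = 0.0647 when scaled to the summed nuclear FPKM), and VEGFA, a classical target, was called at 0.24 but not after leaving out siControl replicate 1 (0.19, adjusted p = 0.0875), siControl replicate 2 (0.24, adjusted p = 0.0569), siFOXN3-2 replicate 1 (0.18, adjusted p = 0.0668) or siFOXN3-2 replicate 3 (0.24, adjusted p = 0.0557).

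Promoters of 3 of these genes show the element as it stands before their start sites, with all sites found for ANKRD37 and BNIP3 and 1 of the 3 found for BHLHE40. For ANKRD37 the RefSeq start site lies within the GENCODE gene span given above, and so do its windows.
ANKRD37 chr4:185396667-185396696 (+): ggcgccgggctcCACGTGccagtgtttgtg
ANKRD37 chr4:185396686-185396715 (+): cagtgtttgtgtACGTGcggccgtggcggg
BHLHE40 chr3:4979251-4979280 (+): ggcagtggccagACGTGcctggagtcacag
BNIP3 chr10:131982040-131982069 (-): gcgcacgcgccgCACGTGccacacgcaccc
Where ACGTG and its reverse complement overlap, the joined palindrome is in capitals. ACGTG was in 12 of the 25 promoters of this list with a sequence (48.0%), in 34.8% of promoters of genes that rose by at least 1, in 20.4% of those that fell by at least 1 and in 27.7% of all.

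Of 22 glycolysis, lactate and pentose phosphate genes, 11 rose and 4 fell, with a median of 0.21. HK2, which traps glucose in the cell, had 51.3, 46.6 and 49.9 FPKM with siFOXN3-2, against 14.8, 18.05 and 16.9 FPKM in siControl (log2 fold change 1.52, SE 0.0785, adjusted p = 5.00e-06). ALDOA (51.1 against 20.8 FPKM, log2 fold change 1.25), ENO2 (0.80) and LDHA (0.60) rose too. The phosphofructokinase genes PFKL (-0.50), PFKP (-0.44) and PFKM (-0.34) and the pyruvate kinase gene PKM (-0.22) went the other way, but PKM was not called after median-ratio scaling (-0.09, adjusted p = 0.175) or GC correction (-0.02, adjusted p = 0.719). Of 7 tested genes around the glucose sensor MondoA and thioredoxin (median 0.40), 4 rose and 2 fell, and TXNRD1, thioredoxin reductase, rose most (122 against 49.4 FPKM, 1.29).

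Cholesterol genes split. When sterol is scarce, SCAP carries SREBP2 out of the endoplasmic reticulum and the genes of uptake and synthesis are transcribed. The list had 16 rises and 7 falls among 29 members, and a median of 0.26. HMGCS1, which makes HMG-CoA, had 102, 109 and 103 FPKM with siFOXN3-2, against 18.3, 18.2 and 18.4 FPKM in siControl (log2 fold change 2.45, SE 0.0513, adjusted p = 1.07e-07). FDFT1, the squalene synthase gene, had 154, 154 and 140.4 FPKM with siFOXN3-2, against 67.9, 63.2 and 66.5 FPKM in siControl (log2 fold change 1.17, SE 0.0595, adjusted p = 4.64e-06), and STARD4, a carrier of cholesterol inside cells, had 27.7, 31.9 and 30.5 FPKM with siFOXN3-2, against 13.2, 12.9 and 13.4 FPKM in siControl (log2 fold change 1.13, SE 0.0637, adjusted p = 7.31e-06). All 3 stood clear of siControl in every sample. IDI1 (1.09) and SQLE (0.84) rose as well. The members that fell included enzymes of the same route, PMVK (8.49 against 18.9 FPKM, -1.07), TM7SF2 (11.2 against 22.3 FPKM, -0.94) and LSS (19.9 against 35.2 FPKM, -0.80), the SREBP gene SREBF1 (48.96 against 78.2 FPKM, -0.67) and the cholesterol exporter ABCA1 (-0.58). Of 26 fatty acid genes (median -0.19), 8 rose and 12 fell. The desaturase gene SCD had 470.5, 438 and 501 FPKM with siFOXN3-2, against 707, 774 and 742 FPKM in siControl (log2 fold change -0.66, SE 0.0687, adjusted p = 1.10e-04). CPT2, of mitochondrial fatty acid import, fell by more (0.525 against 2.35 FPKM, -1.14). ACSL4 (0.55), which activates long-chain polyunsaturated fatty acids, was among those that rose. The sterol motif TCACCCCAC was in 1 of 23 promoters of the cholesterol list (4.35%) and in 0.354% of all, and the NF-Y motif CCAAT in 69.6% of the same 23 and 37.3% of all.

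Heat shock genes mostly rose, and chaperone and degradation genes of the endoplasmic reticulum were mixed. Of 16 heat shock genes, 13 rose and none fell, with a median of 0.47. HSPA1A, an inducible HSP70, had 113, 116 and 83.1 FPKM with siFOXN3-2, against 19.9, 20.3 and 21.7 FPKM in siControl (log2 fold change 2.27, SE 0.122, adjusted p = 5.83e-06). Its near-identical copy HSPA1B gave much the same values (84.1 against 18.3 FPKM, 2.13), and reads cannot be assigned with certainty between them. DNAJB4, a cochaperone, rose (25.4 against 6.19 FPKM, 1.87), as did the transcription factor HSF2 (1.17), while HSF1, HSPA4 and DNAJA1 were not called (-0.16, 0.05 and -0.10). Of 21 endoplasmic reticulum chaperone and degradation genes (median 0.19), 10 rose and 3 fell. DNAJB9 (20.7 against 4.797 FPKM, 1.90) and HSPA5, the chaperone BiP (376 against 172 FPKM, 1.12), led, and calreticulin, CALR, fell (229.5 against 312 FPKM, -0.44).

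The ATF4 and CHOP list moved both ways, with 13 of 27 higher, 10 lower and a median of 0.12. PPP1R15A, which restores translation after stress, had 31.1, 30.2 and 28.2 FPKM with siFOXN3-2, against 7.54, 6.43 and 8.14 FPKM in siControl (log2 fold change 1.88, SE 0.0837, adjusted p = 2.69e-06). DDIT3, which encodes CHOP, had 22.8, 24.3 and 20.1 FPKM with siFOXN3-2, against 7.37, 6.22 and 7.699 FPKM in siControl (log2 fold change 1.53, SE 0.09398, adjusted p = 1.03e-05). Both genes rose in every siFOXN3-2 sample relative to every siControl sample. Enzymes of serine and glycine synthesis that ATF4 also controls fell: PHGDH (7.203 against 10.9 FPKM, -0.54), PSAT1 (36.03 against 61.3 FPKM, -0.75), PSPH (8.95 against 17.3 FPKM, -0.88) and SHMT2 (-1.54). Of other members, CHAC1 (-0.99), ATF5 (-0.61) and TRIB3 (-0.44) also fell, while MTHFD2 (0.97), CTH (0.53) and ASNS (0.38) rose. ATF4 itself was called lower (-0.22). That call was lost without siControl replicate 1 (-0.19, adjusted p = 0.122) or replicate 3 (-0.21, adjusted p = 0.108). It was also lost without siFOXN3-2 replicate 1 (-0.23, adjusted p = 0.0674) or replicate 3 (-0.14, adjusted p = 0.104). Of 19 genes of the NRF2 list, which holds its targets, NFE2L2 (the gene of NRF2 itself) and the inhibitor KEAP1 (median 0.20), 10 rose and 2 fell, with OSGIN1 (34.96 against 6.01 FPKM, 2.36) and GCLM (0.99) among the rises and the transporter ABCC3 (1.36 against 5.11 FPKM, -1.38) and KEAP1 (-0.47) the falls. NFE2L2 rose (0.49). Of 12 iron and metallothionein genes (median 0.02), 4 rose, led by MT1X (14.02 against 4.92 FPKM, 1.34), and 3 fell. Of 14 polyamine genes (median 0.16), 7 rose, with spermine synthase SMS (329 against 165 FPKM, 0.99) after SAT1, and only PAOX fell (-0.84).

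Of 24 genes of DNA damage and growth arrest, 14 rose and 5 fell, with a median of 0.36. CDKN1A, which encodes the kinase inhibitor p21, had 89.04, 86.8 and 80.9 FPKM with siFOXN3-2, against 30.3, 29.6 and 31.2 FPKM in siControl (log2 fold change 1.47, SE 0.0562, adjusted p = 1.72e-06). GADD45A, a stress sensor, had 98.6, 112 and 86.5 FPKM with siFOXN3-2, against 34.5, 29.9 and 33.2 FPKM in siControl (log2 fold change 1.57, SE 0.0983, adjusted p = 1.13e-05). The groups did not overlap in either. The members that fell included the excision repair genes XPC (3.805 against 8.298 FPKM, -0.95) and DDB2 (-0.85), FDXR (-0.57) and ZMAT3 (-0.23). ZMAT3 lost its call without any 1 siControl sample or without siFOXN3-2 replicate 1 or 2 (adjusted p = 0.0547 to 0.110). Of 29 apoptosis genes (median 0.24), 15 rose and 6 fell. MCL1, a short-lived survival protein, had 272, 294 and 309 FPKM with siFOXN3-2, against 107, 117 and 123 FPKM in siControl (log2 fold change 1.33, SE 0.0725, adjusted p = 6.23e-06), and the killer gene BBC3 (PUMA) rose too (0.89). FADD, the death receptor adaptor (4.63 against 10.8 FPKM, -1.06), BOK (-0.94) and CASP8 (1.71 against 3.69 FPKM, -0.79) fell.

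Of 18 cytokine and NF-κB genes (median 0.31), 11 rose and 2 fell, with LIF, a cytokine of the IL-6 family (34.9 against 9.92 FPKM, 1.73), GDF15 (1.21) and RELB (0.59) higher and SOCS3 (5.62 against 10.01 FPKM, -0.73) and TRAF1 (-0.74) lower. Genes that answer to double-stranded RNA and interferon went mostly down, with 16 of 24 lower, 3 higher and a median of -0.33. SAMD9, an antiviral factor, had 0.472, 0.403 and 0.613 FPKM with siFOXN3-2, against 2.39, 2.705 and 2.23 FPKM in siControl (log2 fold change -1.20, SE 0.0984, adjusted p = 3.53e-05), and EIF2AK2, which encodes the double-stranded RNA kinase PKR, had 2.97, 3.11 and 3.22 FPKM with siFOXN3-2, against 6.92, 7.31 and 7.03 FPKM in siControl (log2 fold change -0.98, SE 0.05903, adjusted p = 9.44e-06). MAVS, the mitochondrial adaptor of RNA sensing, fell as well (5.56 against 10.6 FPKM, -0.82). ISG15 and IFI6 were not called (0.09 and 0.18). Of 18 genes of RNA interference and decapping (median 0.04), 6 rose and 6 fell, among them AGO2, the slicing argonaute (18.2 against 9.58 FPKM, 0.86), and DCP1A (1.14) higher and DGCR8, of microRNA processing (1.98 against 6.15 FPKM, -1.27), lower.

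DNA replication genes fell widely. Among 48 members 33 fell and 6 rose, and the median was -0.40 against -0.11 for all genes (-0.27 after median-ratio scaling). MCM3, a subunit of the replicative helicase, had 15.96, 15.8 and 15.7 FPKM with siFOXN3-2, against 48.8, 46.7 and 47.8 FPKM in siControl (log2 fold change -1.53, SE 0.0482, adjusted p = 6.71e-07). MCM5 (7.38 against 15.6 FPKM, -0.99), MCM2 (24.7 against 47.6 FPKM, -0.92), MCM6 (27.4 against 48.1 FPKM, -0.79), MCM4 (-0.70) and MCM7 (-0.44) fell too, so that each of the 6 helicase subunits was lower. GINS2 (-0.87), POLA1, the primase-associated polymerase (5.76 against 11.2 FPKM, -0.85), and TK1, a thymidine kinase (56.7 against 98.98 FPKM, -0.80), followed. The ribonucleotide reductase subunit RRM2 rose instead (43.003, 55.1 and 51.4 FPKM with siFOXN3-2, against 28.6, 25.8 and 28.4 FPKM in siControl, log2 fold change 0.82, SE 0.0932, adjusted p = 1.64e-04), and ORC6 (0.43) and RFC3 (0.37) rose by less. Of 14 E2F, DP and partner genes (median -0.25), 8 fell and 2 rose, with the activator E2F1 (12.7 against 20.97 FPKM, -0.68) and MYBL2 (49.2 against 83.99 FPKM, -0.76) lower and the repressors E2F7 (0.61) and E2F6 (0.41) higher.

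E2F factors, which bind TTTNNCGC, control many of these genes, and the promoters of the helicase subunits MCM3 and MCM6 are given as examples, with 1 of the 2 sites found in MCM3 and both of those in MCM6.
MCM3 chr6:52284898-52284927 (-): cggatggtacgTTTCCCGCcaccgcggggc
MCM6 chr2:135876575-135876604 (-): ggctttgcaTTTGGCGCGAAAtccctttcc
MCM6 chr2:135876513-135876542 (-): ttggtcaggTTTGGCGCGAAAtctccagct
In MCM6 the motif and its reverse complement overlap. The motif was in 22 of the 41 replication promoters with a sequence (53.7%), in 11.2% of all, in 9.78% of those of genes that rose by at least 1 and in 9.29% of those of genes that fell by at least 1.

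Of 33 homologous recombination genes, 20 fell and 2 rose, with a median of -0.39. BRCC3, a deubiquitinase of the BRCA1-A complex, had 2.01, 1.67 and 2.43 FPKM with siFOXN3-2, against 6.96, 7.04 and 6.87 FPKM in siControl (log2 fold change -1.40, SE 0.0941, adjusted p = 1.54e-05), and GEN1, a Holliday junction resolvase, had 0.497, 0.5499 and 0.589 FPKM with siFOXN3-2, against 2.46, 2.43 and 2.52 FPKM in siControl (log2 fold change -1.17, SE 0.0801, adjusted p = 1.67e-05). EME1, a partner of MUS81, fell with them (4.898 against 11.4 FPKM, -1.07), as did XRCC2 (1.804 against 4.59 FPKM, -0.99) and BRCA2 (0.795 against 2.17 FPKM, -0.82). UIMC1, another BRCA1-A subunit (0.48), and RAD54L (0.33) rose. Of 31 Fanconi anaemia and checkpoint genes (median -0.28), 17 fell and 5 rose, with FANCC (-0.81), TIMELESS (16.6 against 28.8 FPKM, -0.76) and MDC1 (-0.72) lower and the mitotic brake WEE1 (8.899 against 4.18 FPKM, 0.93) and UBE2T (0.77) higher. Of 18 end joining genes (median -0.20), 9 fell and 3 rose, with PRKDC, the DNA-dependent protein kinase (45.98 against 73.8 FPKM, -0.68), lower and SHLD3, of the shieldin complex (0.78), higher. After GC correction 30 replication, 17 recombination and 13 Fanconi and checkpoint genes were called lower, against 6, 3 and 7 called higher. End joining genes were even under that correction, with 4 lower, 4 higher and a median of -0.003. Median-ratio scaling gave 5 lower and 4 higher end joining genes, so no direction is given to that list as a whole.

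Genes of mitosis did not share the fall of replication. Among 39 members 18 rose and 10 fell, with a median of 0.13. CDK1, the mitotic kinase, had 96.04, 126 and 111 FPKM with siFOXN3-2, against 57.1, 51.7 and 54.4 FPKM in siControl (log2 fold change 1.01, SE 0.0971, adjusted p = 7.41e-05). NEK2 (0.73), PTTG1, which encodes securin (0.57), and CDC20 (0.54) rose, while the motor KIF11 (23.04 against 38.1 FPKM, -0.70), ESPL1, which encodes separase (-0.66), and BIRC5 (-0.60) fell. Of 20 G1 cyclins, kinases and inhibitors (median -0.02), 9 rose and 8 fell. After CDKN1A the inhibitor CDKN1C (8.64 against 2.91 FPKM, 1.29) and cyclin E1, CCNE1 (17.2 against 8.69 FPKM, 0.91), rose most, and the inhibitors CDKN2C (13.5 against 28.9 FPKM, -1.05) and CDKN2B (-0.69) and cyclin D1, CCND1 (-0.37), were among the falls.

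**Figure D3:**
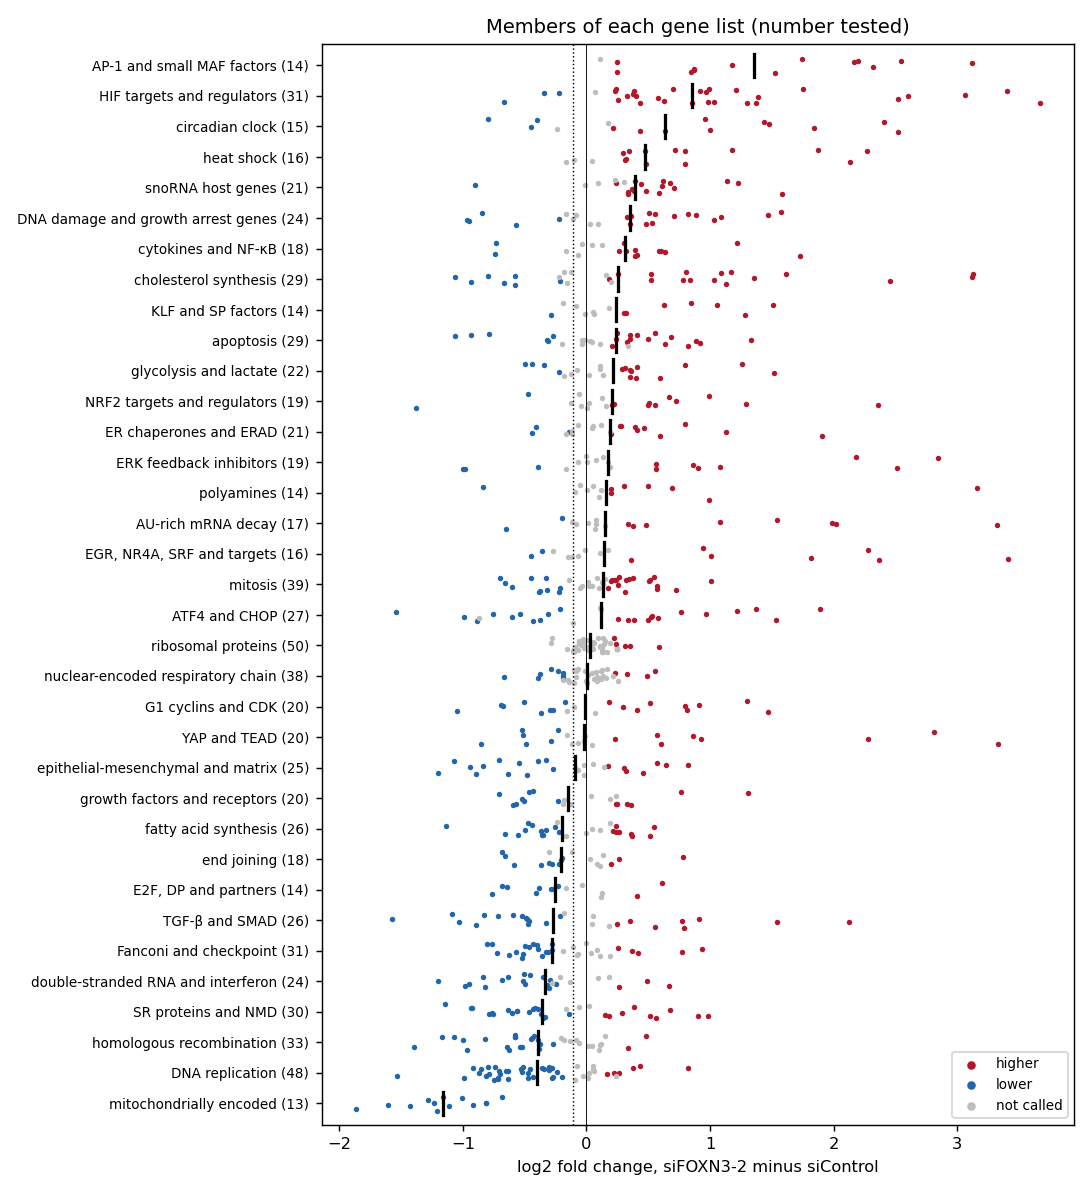
Each point is a tested member of the named gene list (number tested in brackets), placed by its log2 fold change, siFOXN3-2 minus siControl, and coloured red where called higher, blue where called lower and grey where not called. Black bars are list medians, sorted from 1.35 in the AP-1 list at the top to -1.16 in the mitochondrially encoded list at the bottom, and the dotted line is the median of all tested genes (-0.11).

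Clock genes rose more often than not, with 10 of 15 higher, 3 lower and a median of 0.64. PER1, a clock repressor that also answers to cAMP and glucocorticoid, had 44.7, 34.9 and 39.8 FPKM with siFOXN3-2, against 6.17, 7.26 and 6.65 FPKM in siControl (log2 fold change 2.40, SE 0.0957, adjusted p = 1.76e-06). NR1D1, which encodes REV-ERBα (17.1 against 4.07 FPKM, 1.84), and CRY1 (1.001) rose, while NPAS2 (1.0005 against 2.48 FPKM, -0.80), PER3 (-0.45) and BHLHE41 (-0.40) fell. Of 20 YAP pathway genes (median -0.02), 8 rose and 6 fell. The targets CCN2, CCN1 and ANKRD1 (18.8 against 3.09 FPKM, 2.28) rose. Falls were not confined to the factors, since AMOTL1 (-0.51), AMOT (-0.49), LATS1 (-0.29) and AXL (-0.23) also fell. Of the factors themselves, YAP1 (-0.52) and TEAD2 (4.93 against 9.703 FPKM, -0.85) fell, and TEAD1, TEAD3, TEAD4 and WWTR1 were not called (-0.12, -0.02, -0.07 and 0.05, with TEAD3 and TEAD4 called higher after GC correction).

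Of 26 TGF-β and SMAD genes (median -0.27), 14 fell and 8 rose. The receptors TGFBR1 (4.37 against 8.96 FPKM, -0.89) and TGFBR2 (10.1 against 22.6 FPKM, -1.08) and the latent binding proteins LTBP2 (8.88 against 28.2 FPKM, -1.57) and LTBP3 (-1.03) fell. Of 25 epithelial-mesenchymal and matrix genes (median -0.09), 7 rose and 12 fell, with TWIST1 (0.82) and ZEB1 (0.57) higher, the integrins ITGA3 (75.4 against 174 FPKM, -1.20) and ITGAV (-0.94) and tenascin C, TNC (-1.07), lower, and VIM, the intermediate filament of mesenchymal cells, not called (468 against 476 FPKM, -0.02). Of 14 matrix proteases and inhibitors (median 0.03), 5 rose and 5 fell, and MMP1, a collagenase and a known AP-1 target, had 35.5, 42.9 and 40.9 FPKM with siFOXN3-2, against 5.27, 5.84 and 5.705 FPKM in siControl (log2 fold change 2.62, SE 0.0794, adjusted p = 5.74e-07). Of 21 G protein signalling genes (median 0.13), 9 rose, with the regulators RGS2 (9.64 against 1.62 FPKM, 2.02) and RGS3 (1.56) first, and 7 fell, with the thrombin receptor F2R (19.1 against 39.7 FPKM, -1.02) after NTSR1. Of 24 Wnt genes (median -0.10), 3 rose, among them the inhibitor DKK1 (14.6 against 5.47 FPKM, 1.26), and 7 fell, among them the receptor FZD1 (6.05 against 12.7 FPKM, -0.96) and CTNNB1 (-0.53). Of 14 Notch genes (median -0.06), 4 rose, led by the target HES1 (20.8 against 10.8 FPKM, 0.88), and 5 fell, led by HEYL (-0.68) and MAML2 (-0.68).

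Genes of RNA processing and translation differed in direction from list to list, and hosts of small nucleolar RNAs mostly rose. Of 21 such hosts, 16 rose and 1 fell, with a median of 0.39. SNHG3 (57.5 against 23.98 FPKM, 1.22), SNHG5 (172 against 77.7 FPKM, 1.14) and TAF1D (28.2 against 8.75 FPKM, 1.58) rose most, and SNHG11 fell (-0.90). Of 30 SR proteins, CLK kinases and nonsense-mediated decay factors, 18 fell and 9 rose, with a median of -0.36. SRSF6 (21.1 against 41.2 FPKM, -0.93), HNRNPA2B1 (79.1 against 151 FPKM, -0.93) and CLK2 (4.398 against 10.9 FPKM, -1.15) fell, and CLK1 (22.2 against 10.7 FPKM, 0.99) and SRSF4 (0.67) rose. Changes of cytosolic ribosomal proteins were small, with 6 of 50 higher, none lower, a median of 0.03 and log2 fold changes of -0.28 to 0.59. Their calls depended on the scaling, with 18 higher and none lower after median-ratio scaling and 6 higher and 17 lower after quantile normalization.

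Of 36 ribosome biogenesis genes (median 0.14), 16 rose and 10 fell. UBTF, the upstream binding factor of RNA polymerase I, had 7.25, 6.797 and 6.79 FPKM with siFOXN3-2, against 19.1, 18.96 and 19.2 FPKM in siControl (log2 fold change -1.34, SE 0.0527, adjusted p = 1.76e-06), and POLR1A, the largest subunit of that polymerase, had 2.65, 1.85 and 2.43 FPKM with siFOXN3-2, against 5.198, 6.02 and 5.67 FPKM in siControl (log2 fold change -1.01, SE 0.103, adjusted p = 9.86e-05). The helicase DDX21 (88.5 against 42.3 FPKM, 1.05) and the nucleolar protein GNL3 (0.95) rose. Of 37 aminoacyl-tRNA synthetases (median -0.11), 6 rose and 13 fell, the falls led by PARS2 (-1.05) and AARS2 (6.16 against 12.2 FPKM, -0.88). Of 38 Integrator and Mediator subunits (median -0.02), 11 rose and 11 fell, with MED30 (29.4 against 12.6 FPKM, 1.15) at the top and INTS5 (3.51 against 10.4 FPKM, -1.34) and MED22 (-1.11) at the bottom. Of 33 chromatin modifiers (median -0.11), 10 rose, led by the deacetylase SIRT1 (27.9 against 11.6 FPKM, 1.20), and 13 fell, led by the arginine methyltransferase PRMT6 (1.93, 2.196 and 1.78 FPKM with siFOXN3-2, against 8.63, 8.14 and 7.87 FPKM in siControl, log2 fold change -1.64, SE 0.07403, adjusted p = 2.82e-06). Of 42 lysosome and autophagy genes (median -0.02), 15 rose, with ATG12 (0.90) and GABARAPL1 (0.85) first, and 13 fell, with HPS6, of the BLOC-2 complex (2.99 against 12.1 FPKM, -1.71), last. In the lists whose median lay within 0.2 of 0, the sign of the median turned under at least 1 other scaling for the growth factor, YAP, matrix, protease, RNA interference, G1, respiratory chain, cytosolic and mitochondrial ribosomal, synthetase, Integrator and Mediator, lysosome, Wnt, Notch, iron, fatty acid, study gene and mitochondrial factor lists, so no direction is given to those lists as a whole. The chromatin modifiers had more falls than rises on the deposited values but 11 rises and 10 falls after median-ratio scaling.

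Classes of genes differed beyond pathway lists. Of 32 tested genes of the histone clusters, whose usual transcripts lack poly(A) tails, 22 rose and 3 fell, with a median of 0.83. H2BC21, a histone H2B gene, had 77.2, 78.1 and 80.7 FPKM with siFOXN3-2, against 8.81, 9.92 and 9.01 FPKM in siControl (log2 fold change 2.96, SE 0.05904, adjusted p = 1.07e-07). H1-2, a linker histone gene, had 429.6, 466 and 372 FPKM with siFOXN3-2, against 105, 83.6 and 96.99 FPKM in siControl (log2 fold change 2.14, SE 0.107, adjusted p = 4.56e-06). The groups were far apart in both, while H2AC13, a histone H2A gene, fell (3.096 against 6.44 FPKM, -0.88). These genes are near copies of each other, so single members are uncertain. Other protein-coding genes with a single exon went the other way, with 33 of 155 higher, 92 lower and a median of -0.35. Of 49 snoRNA genes, 19 rose and 5 fell, but these are shorter than a usual fragment and lie inside introns of other genes. Zinc finger genes named ZNF fell more often than all genes, with 42 of 358 higher, 182 lower and a median of -0.23.

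The share of calls moved with the GC content and the level of a gene. In the quintile of nuclear protein-coding genes with the lowest exonic GC content (30 to 41%), 37.5% rose and 27.6% fell, and in the quintile with the highest (58 to 74%), 10.3% rose and 57.9% fell. In the quintile with the lowest mean level 10.6% rose and 48.4% fell, and in the quintile with the highest 34.4% rose and 27.9% fell. Genes with over 20 exons had 15.4% higher and 46.4% lower. The part of GC content, level or exon number in the lists above was not tested, and GC correction called 28 of 31 HIF list members, 14 of 16 heat shock genes and 13 of 14 AP-1 list members higher.

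**Figure D4:**
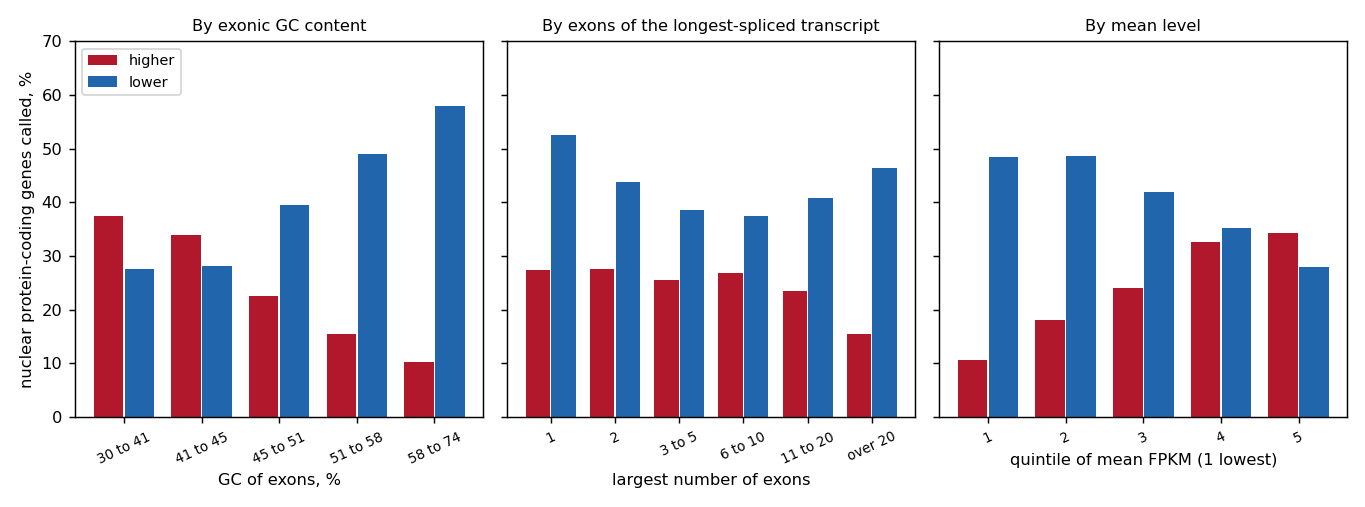
Percentage of nuclear protein-coding genes called higher (red) and lower (blue) with siFOXN3-2, by quintiles of exonic GC content, by the largest number of exons of a transcript and by quintiles of mean FPKM. The share called lower rises with GC content, 27.6% in the lowest quintile and 57.9% in the highest, while the share called higher rises with level, 10.6% in the lowest quintile and 34.4% in the highest.

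A direct test of siFOXN3-2 against siFOXN3-1, in a fit with all 9 samples, asked where the siRNAs against the same gene differed. It called 4620 genes (35.8%), 3274 higher and 1346 lower with siFOXN3-2. The genes were those of the main comparison, whose level filter used siFOXN3-2 and siControl but not siFOXN3-1. Genes high with siFOXN3-1 alone were thus left out, and the part of the filter in these counts was not tested. Median-ratio scaling changed this split to 1916 higher and 2001 lower. Of the 10 genes with the largest rise, EGR1, CCN2, ZFP36, INSIG1 and MSMO1 differed between the siRNAs, and HILPDA, ADM, SAT1, FOS and ANKRD37 did not pass this test. HILPDA had 148, 158 and 135 FPKM with siFOXN3-2, against 152, 157 and 163 FPKM with siFOXN3-1 (log2 difference -0.10, SE 0.0685, adjusted p = 0.282), and FOS had 32.8, 33.6 and 28.3 FPKM with siFOXN3-2, against 27.4, 31.8 and 29.3 FPKM with siFOXN3-1 (difference 0.09, SE 0.0819, adjusted p = 0.409). Both siRNAs thus gave levels that overlapped in these 2 genes. CCN2 reached 299, 289.8 and 269.9 FPKM with siFOXN3-2, against 167, 163 and 169.7 FPKM with siFOXN3-1 (difference 0.78, SE 0.0527, adjusted p = 1.80e-05). INSIG1 was higher with siFOXN3-2 than with siFOXN3-1, with a log2 difference of 0.40 (adjusted p = 0.00105), and JUN and IER3 were lower, with log2 differences of -0.75 and -1.08 (adjusted p = 2.26e-04 and 1.77e-05). Against 35.8% of all tested genes, 7 of 31 HIF list members, 7 of 14 AP-1 list members, 12 of 16 EGR, NR4A and serum response factor list members, 19 of 29 cholesterol genes and 21 of 48 replication genes differed between the siRNAs.

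Of the genes lower with siFOXN3-2 than with siFOXN3-1, SLC25A5, RNU6-1263P, MTPN and SHMT2 showed the largest differences. SLC25A5, a mitochondrial ADP/ATP carrier, had 84.9, 106 and 92.1 FPKM with siFOXN3-2, 318, 351 and 378 FPKM with siFOXN3-1 and 322, 302 and 299 FPKM in siControl (siFOXN3-2 minus siFOXN3-1 -1.88, SE 0.0892, adjusted p = 3.78e-06). SHMT2, the mitochondrial serine hydroxymethyltransferase, had 9.02, 10.2 and 9.74 FPKM with siFOXN3-2, 25.04, 25.9 and 26.1 FPKM with siFOXN3-1 and 31.4, 28.1 and 30.7 FPKM in siControl (-1.33, SE 0.061005, adjusted p = 3.78e-06). Both genes were low in every siFOXN3-2 sample and fairly close to siControl with siFOXN3-1. MTPN, the capping protein regulator myotrophin, was lower than siControl with siFOXN3-2 and higher with siFOXN3-1, at 24.2, 29.4 and 29.1 FPKM with siFOXN3-2, 78.6, 74.8 and 67.8 FPKM with siFOXN3-1 and 50.3, 50.1 and 49.5 FPKM in siControl (-1.39, SE 0.0794, adjusted p = 1.02e-05). The protease inhibitor TFPI2 and the hair keratin-associated gene KRTAP2-3 were above siControl with both and lower with siFOXN3-2 than with siFOXN3-1, by log2 differences of -1.22 (adjusted p = 1.39e-05) and -1.22 (adjusted p = 1.17e-04). KRTAP2-3 averaged 4.94 FPKM with siFOXN3-2, 12.9 FPKM with siFOXN3-1 and 0.281 FPKM in siControl.

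In the other direction, ACP2, a lysosomal acid phosphatase, was lowered less by siFOXN3-2, at 3.22, 3.53 and 3.24 FPKM, against 0.961, 1.13 and 0.8195 FPKM with siFOXN3-1 and 8.49, 8.21 and 8.31 FPKM in siControl (1.14, SE 0.0712, adjusted p = 1.39e-05). PPIP5K2, an inositol pyrophosphate kinase, had 5.71, 6.08 and 6.31 FPKM with siFOXN3-2, 2.57, 2.25 and 2.15 FPKM with siFOXN3-1 and 4.32, 4.35 and 4.64 FPKM in siControl (1.08, adjusted p = 1.39e-05), so the siRNAs lay on opposite sides of the control. SNORA71C, a small nucleolar RNA, was highest with siFOXN3-2, with log2 difference 1.14 (adjusted p = 7.24e-04). S100A9 and LYZ, which are abundant in myeloid cells, also differed. Both passed the level filter only through their siFOXN3-2 values, so their adjusted p-values and ranks cannot be taken as support for a difference. S100A9 had 4.18, 3.76 and 2.301 FPKM with siFOXN3-2, 0, 0 and 0 FPKM with siFOXN3-1 and 1.02, 1.17 and 0.6197 FPKM in siControl (2.12, SE 0.166, adjusted p = 3.55e-05), and LYZ had 1.5996, 1.57 and 1.22 FPKM with siFOXN3-2, 0.0297, 0.0311 and 0.0647 FPKM with siFOXN3-1 and 0.243, 0.679 and 0.985 FPKM in siControl (1.24, SE 0.155, adjusted p = 3.52e-04). The call of LYZ against siControl was lost without siFOXN3-2 replicate 1 (log2 fold change 0.57, adjusted p = 0.0529). The collagen genes COL1A2 and COL3A1, which lay below the level filter, averaged 0.916 and 0.786 FPKM with siFOXN3-2, 0.0194 and 0.0452 FPKM with siFOXN3-1, and 0.0155 and 0.0919 FPKM in siControl. The part of other cells' RNA in S100A9, LYZ and the collagens was not tested.

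**Figure D5:**
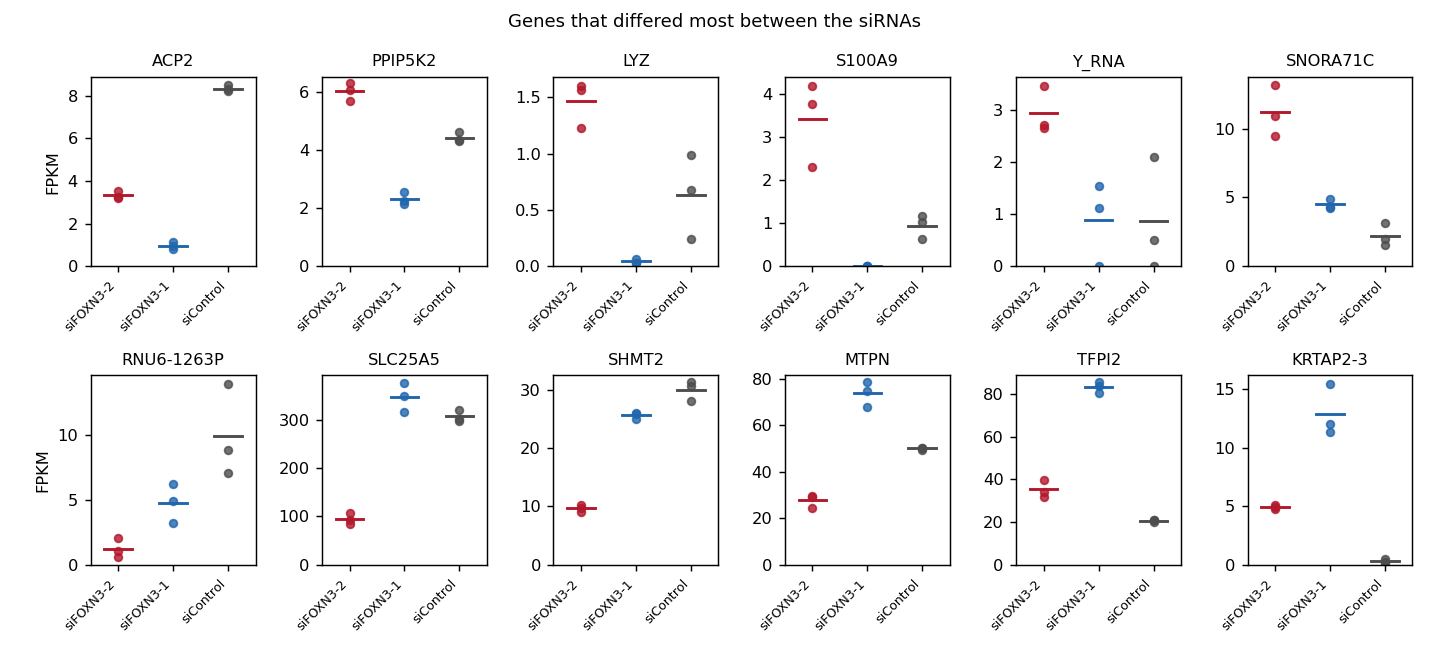
FPKM in each sample (points) and group means (bars) of the 12 genes that differed most between the siRNAs among those called against siControl, with siFOXN3-2 in red, siFOXN3-1 in blue and siControl in grey. The upper row holds genes higher with siFOXN3-2 than with siFOXN3-1, such as S100A9, and the lower row genes lower with it, such as SLC25A5, each panel on its own linear axis from 0.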

How the data were processed

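The deposited table held FPKM per gene for 9 samples, and per the submitters' processing notes the authors' tools were StringTie 1.3.3b, HISAT2 2.1.0 and fastp 0.14.0, with GRCh38 as the build. Values were used as deposited. The annotation release used by the authors is not given in the sources used here, and exon lengths, GC content and coordinates came from GENCODE 29 on GRCh38. Low FPKM values fell on steps of whole reads for 98.2 to 98.3% of values in each sample (tolerance 0.05 reads), which gave the depths. The genes that averaged 1 FPKM or more in the 6 samples were fitted on log2(FPKM + 1) with limma 3.58.1 (R 4.3.3; trend in the prior variance, 4 residual and 3.85 prior degrees of freedom), two-sided, with Benjamini-Hochberg adjustment at 0.05. The siFOXN3-2 and siFOXN3-1 samples were compared in a fit of all 9 samples. On simulated data for the 12900 genes, 194 of 200 changed genes were recovered, with 11 false calls. These figures are not split by size of change. Of the 8039 genes called in the data, 796 had a log2 fold change of 1 or more in either direction. Recovery at smaller sizes, or with so many genes changed, was not tested separately. A count-based fit (voom on the recovered reads) was an alternative. The other alternatives were the pseudocount, the level filter, the scaling, the variance prior, each sample left out, the replicate block, protein-coding genes only and a GC correction. Named genes were the 10 largest rises and falls, the 8 largest gains and losses in FPKM, the largest differences between siRNAs and members of 51 gene lists. The members and lists were chosen with earlier results of these data known. Of 1336 listed symbols 1192 were tested, 131 lay below the filter and 13 had no match. Promoters and their sequences are from RefSeq on GRCh38.p14. Some genes are counted in their lists but not reported by name here.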

Additional observations from a re-analysis of the deposited data

Results flagged for a closer look

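The values here differed between siFOXN3-2 and siFOXN3-1 in the direct test, or lay in genes that the comparison left out for their low level. The direct test, over genes chosen by their level in the siFOXN3-2 and siControl samples, called 4620 genes in limma with Benjamini-Hochberg adjustment. Of the genes called against siControl, those with the largest positive difference, siFOXN3-2 minus siFOXN3-1, were S100A9 (2.12), LYZ (1.24), a Y_RNA gene (1.16), SNORA71C (1.14), ACP2 (1.14) and PPIP5K2 (1.08). Those with the largest negative difference were SLC25A5 (-1.88), RNU6-1263P (-1.41), MTPN (-1.39), SHMT2 (-1.33), TFPI2 (-1.22) and KRTAP2-3 (-1.22). Y_RNA and RNU6-1263P are short RNA genes with many near-identical copies, so their values are uncertain. S100A9 and LYZ passed the level filter only through their siFOXN3-2 values, so their places here are no support for a difference.

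COL1A2, a collagen chain gene below the level filter, had 1.22, 0.734 and 0.798 FPKM with siFOXN3-2 (mean 0.916), against a mean of 0.0194 FPKM with siFOXN3-1 and 0.0155 FPKM in siControl. COL3A1 had 0.984, 0.653 and 0.723 FPKM with siFOXN3-2 (mean 0.786), against means of 0.0452 and 0.0919 FPKM with siFOXN3-1 and in siControl. Of the other fibroblast markers, LUM was listed at 0 in siControl and averaged 0.0562 FPKM with siFOXN3-2 and 0.0364 FPKM with siFOXN3-1, and DCN averaged 0.0696, 0.0183 and 0.0390 FPKM in siFOXN3-2, siFOXN3-1 and siControl. PTPRC, a leukocyte marker, averaged 0.160 FPKM with siFOXN3-2 and 0.0547 FPKM in siControl and was listed at 0 in each siFOXN3-1 sample. S100A8, the partner of S100A9, averaged 0.543 FPKM with siFOXN3-2 and 0.279 FPKM in siControl and was likewise listed at 0 with siFOXN3-1. The source of these transcripts was not tested.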

How the results depend on the processing

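The fall of FOXN3 kept its direction and its side of the threshold in each alternative run for it. The count of called genes, 8039, was 4748 when a mean of at least 5 FPKM was asked for and 796 (351 higher and 445 lower) when a log2 fold change of 1 or more in either direction was required. The count of lower genes, 5059, was 2567 at a mean of at least 5 FPKM. Both are smaller by construction. Leaving out each sample in turn gave 6975 to 7701 called genes, 2595 to 2903 of them higher and 4373 to 4838 lower. Between siFOXN3-2 and siFOXN3-1, the count of higher genes, 3274, was 1916 after median-ratio scaling (the cause was not tested) and 2334 to 3079 on leaving out 1 sample, with 965 to 1226 lower. Fitting whole reads recovered from the FPKM with voom, protein-coding genes only and a GC correction were added after seeing the data, and they called 8283 of 12890, 7285 of 10802 and 7820 of 12882 genes. GC correction turned the direction of HSF1 (0.16), ATF4 (0.027), IER2 (0.18), TEAD3 (0.26) and TEAD4 (0.22), of which ATF4 alone was called on the deposited values and the other 4 only after the correction. Of the genes named in the text 310 were compared under the alternatives. Of these 284 were called, and 19 of the called genes lost their call or turned under at least 1 alternative, 8 of them on leaving out 1 sample. Samples with the same replicate number did not deviate together across genes (correlations of -0.12, -0.27 and -0.05). Samples handled together need not share such a deviation, so whether the numbers pair the samples stays unknown. With the replicate number as a block 7104 genes were called, 2606 higher and 4498 lower, and 2447 higher and 1022 lower between the siRNAs. Depths of 17.01 to 19.6 M fragments leave genes near 1 FPKM, and those shorter than a fragment, with few reads.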

Other observations

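Genes outside the lists also moved by 1 or more on the log2 scale, and the ones given here were chosen after their values were seen. CXCR4, the receptor of the chemokine CXCL12, had 11.5, 12.8 and 11.6 FPKM with siFOXN3-2, against 0.866, 1.17 and 0.988 FPKM in siControl (log2 fold change 2.69, SE 0.0788, adjusted p = 5.50e-07). GEM, a small GTPase induced by growth signals, had 70.2, 71.2 and 69.6 FPKM with siFOXN3-2, against 10.9, 10.4 and 10.5 FPKM in siControl (log2 fold change 2.62, SE 0.0489, adjusted p = 1.07e-07), and NOG, which encodes the BMP antagonist noggin, had 32.4, 35.8 and 33.3 FPKM with siFOXN3-2, against 5.09, 5.698 and 5.62 FPKM in siControl (log2 fold change 2.43, SE 0.0641, adjusted p = 2.90e-07). All siFOXN3-2 samples of these genes were several times above siControl. CITED2, a coactivator partner that competes with HIF, rose to 136 FPKM with siFOXN3-2, against 24.7 FPKM in siControl (log2 fold change 2.42). PIM1, a survival kinase and paralog of PIM2, rose as well (66.2 against 12.8 FPKM, 2.28), as did the matrix protease MMP10 (7.86 against 1.17 FPKM, 2.04), the kinase SGK1 (8.31 against 2.28 FPKM, 1.50) and the enzyme of ceramide glucosylation, UGCG (62.1 against 23.9 FPKM, 1.34).

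Among the falls outside the lists, EIF5, a translation initiation factor, had 13.6, 13.8 and 14.9 FPKM with siFOXN3-2, against 47.02, 45.6 and 46.6 FPKM in siControl (log2 fold change -1.65, SE 0.05502, adjusted p = 8.93e-07). RIPK1, a kinase of cell death signalling, had 5.95, 4.43 and 6.11 FPKM with siFOXN3-2, against 16.4, 16.7 and 16.8 FPKM in siControl (log2 fold change -1.45, SE 0.102, adjusted p = 1.85e-05), and DAG1, which encodes dystroglycan, had 5.197, 4.89 and 5.91 FPKM with siFOXN3-2, against 17.2, 18.4 and 18.1 FPKM in siControl (log2 fold change -1.58, SE 0.0719, adjusted p = 2.84e-06). The 2 groups stayed apart in each of these genes. PLXNA1, a semaphorin receptor (10.99 against 36.2 FPKM, -1.64), GPER1, an oestrogen-binding G protein-coupled receptor (0.419 against 3.88 FPKM, -1.78), CENPB, a centromere binding protein made from a single exon (14.1 against 40.5 FPKM, -1.46), and ZWINT, a kinetochore protein (22.7 against 62.3 FPKM, -1.42), fell too.

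XAGE1A, a cancer-testis antigen gene with near-identical copies, had 0.549, 1.52 and 27.3 FPKM with siFOXN3-2, 0.977, 1.43 and 1.65 FPKM with siFOXN3-1 and 0.799, 0.681 and 1.05 FPKM in siControl. Since its copies share reads, these values cannot be assigned to 1 gene.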
